A study of Homo sapiens with 2 samples.

Results

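The genes of sterol and fatty acid synthesis, with their regulators and a few genes of sterol transport, were followed in A549 cells after knockdown of the long noncoding RNA MILIP. The group holds 37 genes that were listed by symbol and matched to the deposited table by Ensembl identifier: 7 enzymes of the mevalonate and isoprenoid steps, 11 enzymes of the sterol steps, 5 regulators of the transcription factor SREBP, 8 genes of fatty acid synthesis and 6 genes of sterol transport and of the nuclear receptor LXR. All 37 were found among the 60711 genes of the table, and all 37 were among the 13521 genes whose mean value over both libraries was at least 1, on which every count over all genes rests.

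A549 is an established human lung cancer line of epithelial origin. The cells were grown with fetal bovine serum, transfected with a control siRNA or with a siRNA against MILIP and harvested 48 h later, and RNA from each condition was sequenced as 1 library. The study used the comparison to ask which gene pathways change when MILIP, a transcript activated by c-Myc, is silenced. Both groups were the same parental line and differed, as far as the labels say, only in the siRNA. A single siRNA sequence without a second one means that an effect of losing MILIP and an effect of this siRNA on other transcripts cannot be told apart in these libraries. In bulk RNA, fewer cells of a kind and less RNA per cell cannot be told apart either.

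Cells make cholesterol from acetyl-CoA through mevalonate, isoprenoids, squalene and lanosterol. The pathway is controlled by the transcription factors SREBF1 and SREBF2, which are held in the endoplasmic reticulum membrane by SCAP and the INSIG proteins while sterol is plentiful and are cut free to enter the nucleus when it is scarce. Fatty acid synthesis shares the acetyl-CoA supply and much of the SREBP control, whereas LXR, which binds oxidised sterols, switches on genes that export sterol or limit its uptake.

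Values are the authors' read counts after scaling of each library to a total near that of CPM (counts per 1e6 reads). Each value above 0 was a whole multiple of 1 step per library, and with a step read as 1 read the control library held 20300800 listed reads and the knockdown library 19460956. MILIP itself stood at 29.5 with control siRNA against 3.22 after MILIP siRNA, a log2 ratio of −2.85. Of the 10 A549 and simple epithelium markers checked, 10 were above 0 in these libraries, whereas SFTPC, SFTPB and LAMP3 of differentiated alveolar type II cells (NAPSA was at 1.05 and 1.26), the endothelial markers and the fibroblast and blood markers with a value were listed at 0. Log2 ratios are of MILIP siRNA over control siRNA with a pseudocount of 1, so a positive ratio is a higher value after MILIP siRNA. Limits are 95% Clopper-Pearson limits on the plain ratio, and they take in counting error alone. With 1 library per condition there is no replicate check, the spread between cultures is unknown, and no p-value is given. A difference was counted from 1.5-fold, a log2 ratio of 0.585 in size.

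The sterol branch stood mostly higher after MILIP siRNA. Of the 18 mevalonate and sterol enzymes, 16 had a ratio above 0, 8 stood at least 1.5-fold higher and 1 at least 1.5-fold lower, with a median log2 ratio of 0.51. Of all 13521 genes tested, 6469 had a ratio above 0. Over all 37 genes, 10 (27.0%, against 11.1% of all genes tested) were at least 1.5-fold higher and 3 (8.11%, against 13.8% of all genes tested) at least 1.5-fold lower. The median of the 37 log2 ratios was 0.36, beside −0.03 over all genes tested. Of the 37 genes, INSIG1 had the highest ratio and ABCA1 the lowest, the former ranking 84 from the highest and the latter 38 from the lowest among all genes tested. The summed value of the 37 genes was 8516 in control cells and 8515 after MILIP siRNA, with lower values of the abundant genes SCD and ACLY on one side and higher values of most others on the other. In GRCh38 with GENCODE release 29, INSIG1 (ENSG00000186480) lies on chromosome 7 from 155297776 to 155310235 (+), ABCA1 (ENSG00000165029) on chromosome 9 from 104781002 to 104928237 (−) and SCD (ENSG00000099194) on chromosome 10 from 100347124 to 100364834 (+).

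**Figure D1:**
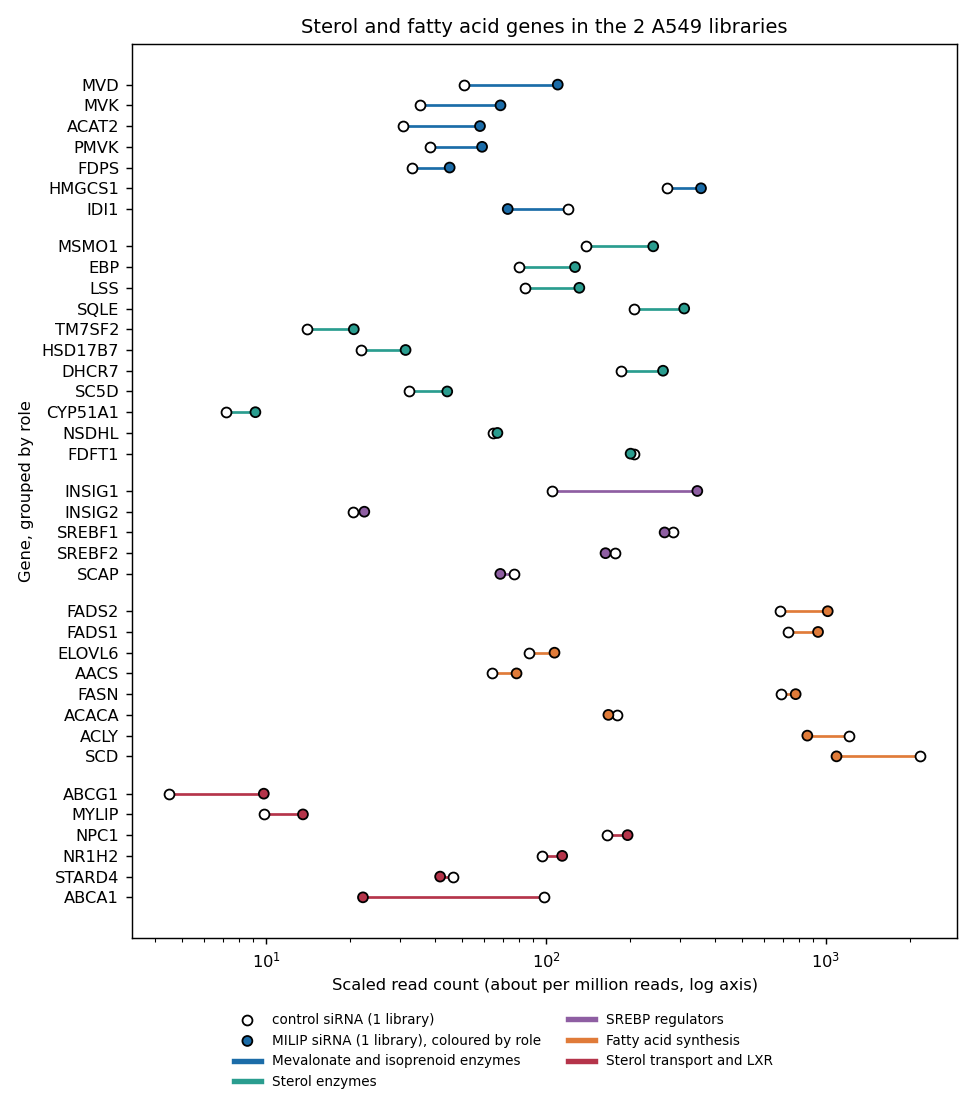
Scaled read count of each of the 37 genes with control siRNA (open circles) and after MILIP siRNA (filled circles), on a log axis, with genes grouped and coloured by role and 1 library per condition. Most blue and green filled circles lie to the right of the open ones, INSIG1 goes from 104.6 to 347.1, and SCD, IDI1 and ABCA1 go the other way.

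The 7 enzymes of the mevalonate and isoprenoid steps act between acetyl-CoA and farnesyl diphosphate. The group does not hold every enzyme of that route, and the step from HMG-CoA to mevalonate is not covered. Of these 7 genes, 4 stood at least 1.5-fold higher and 1 at least 1.5-fold lower, with a median log2 ratio of 0.60 and a summed value of 579 in control cells against 772 after MILIP siRNA. MVD, which decarboxylates mevalonate diphosphate to isopentenyl diphosphate, stood at 50.8 with control siRNA against 110.1 after MILIP siRNA (log2 ratio 1.10, limits 1.01 to 1.23) from 1014 and 2190 reads. MVK, the first of the kinases that phosphorylate mevalonate, had values of 35.5 and 68.7 (log2 ratio 0.94, limits 0.82 to 1.09). PMVK, the kinase that acts next, had values of 38.5 and 59.1 (log2 ratio 0.60, limits 0.48 to 0.75). The 3 enzymes that act in succession on mevalonate were thus all past 1.5-fold in the same direction, although the lower limit of PMVK lay inside that size.

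ACAT2, the cytosolic thiolase that joins acetyl-CoA units at the entry of the pathway, stood at 30.9 with control siRNA against 58.1 after MILIP siRNA (log2 ratio 0.89, limits 0.77 to 1.05). Its exons lie opposite those of other genes, 33.9% of their bases against SOD2-OT1, 26.5% against SOD2 and 9.23% against TCP1. The sources used here do not say whether reads were counted by strand. HMGCS1, which makes HMG-CoA, had values of 270.8 and 357.8 and a log2 ratio of 0.40. FDPS, which makes farnesyl diphosphate, had values of 33.1 and 45.3 and a log2 ratio of 0.44. Both genes were above 0 by their limits and inside 1.5-fold, and 15% of the exon bases of HMGCS1 and 18.6% of those of FDPS lie opposite an antisense gene.

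IDI1, which isomerises isopentenyl diphosphate and so acts between MVD and FDPS, was the exception in this branch. It stood at 119.5 with control siRNA against 73.0 after MILIP siRNA (log2 ratio −0.70, limits −0.81 to −0.62), on 2385 and 1451 reads. An antisense gene lies opposite 14.8% of its exon bases. IDI1 was the only one of the 18 mevalonate and sterol enzymes past 1.5-fold in the lower direction. A match to the seed of the siRNA lies in its 3′ UTR and is shown with the others further on.

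The sterol steps turn farnesyl diphosphate into cholesterol by way of squalene and lanosterol. Of these 11 genes, 4 stood at least 1.5-fold higher and 0 lower by that size, with a median log2 ratio of 0.51 and a summed value of 1040 in control cells against 1446 after MILIP siRNA. MSMO1, the methyl oxidase that begins removal of the methyl groups at carbon 4, had values of 138.7 and 241.5 (log2 ratio 0.80, limits 0.73 to 0.87). EBP, the sterol isomerase, had values of 79.8 and 126.9 (log2 ratio 0.66, limits 0.58 to 0.76). LSS, which closes the sterol rings to give lanosterol, had values of 84.1 and 131.5 (log2 ratio 0.64, limits 0.56 to 0.73). All 3 had lower limits near 1.5-fold or above it. SQLE, the squalene epoxidase that feeds LSS, stood at 205.4 with control siRNA against 311.6 after MILIP siRNA. Its log2 ratio of 0.60 (limits 0.54 to 0.66) made it the gene that passed 1.5-fold by the least in the higher direction.

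A further 5 sterol enzymes stood above 0 by their limits but inside 1.5-fold. TM7SF2, a sterol reductase, had values of 14.0 and 20.6 and a log2 ratio of 0.52. HSD17B7, a ketone reductase of the carbon 4 demethylation, had values of 21.8 and 31.5 and a log2 ratio of 0.51. DHCR7, which makes cholesterol in the last step of one branch, had values of 185.8 and 261.8 and a log2 ratio of 0.49. DHCR7 was the most abundant of these 5. SC5D, the desaturase that acts before DHCR7, had values of 32.4 and 44.4 and a log2 ratio of 0.44. CYP51A1, which demethylates lanosterol, had the lowest value of these enzymes, 7.16 and 9.15, and its log2 ratio of 0.31 had limits of 0.03 to 0.68. A coding gene model on the same strand overlaps 79.4% of the exon bases of CYP51A1, and its value is uncertain for that reason.

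NSDHL and FDFT1 differed between the libraries by less than the counting error. NSDHL, a dehydrogenase of the same demethylation, had values of 64.7 and 67.0 and a log2 ratio of 0.05 with limits on both sides of 0. FDFT1, the squalene synthase that commits farnesyl diphosphate to sterols, had values of 206.4 and 200.5 and a log2 ratio of −0.04 with limits of −0.10 to 0.02. The enzymes on either side of FDFT1 in the pathway, FDPS and SQLE, were higher than it in ratio, with limits that did not overlap its own.

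**Figure D2:**
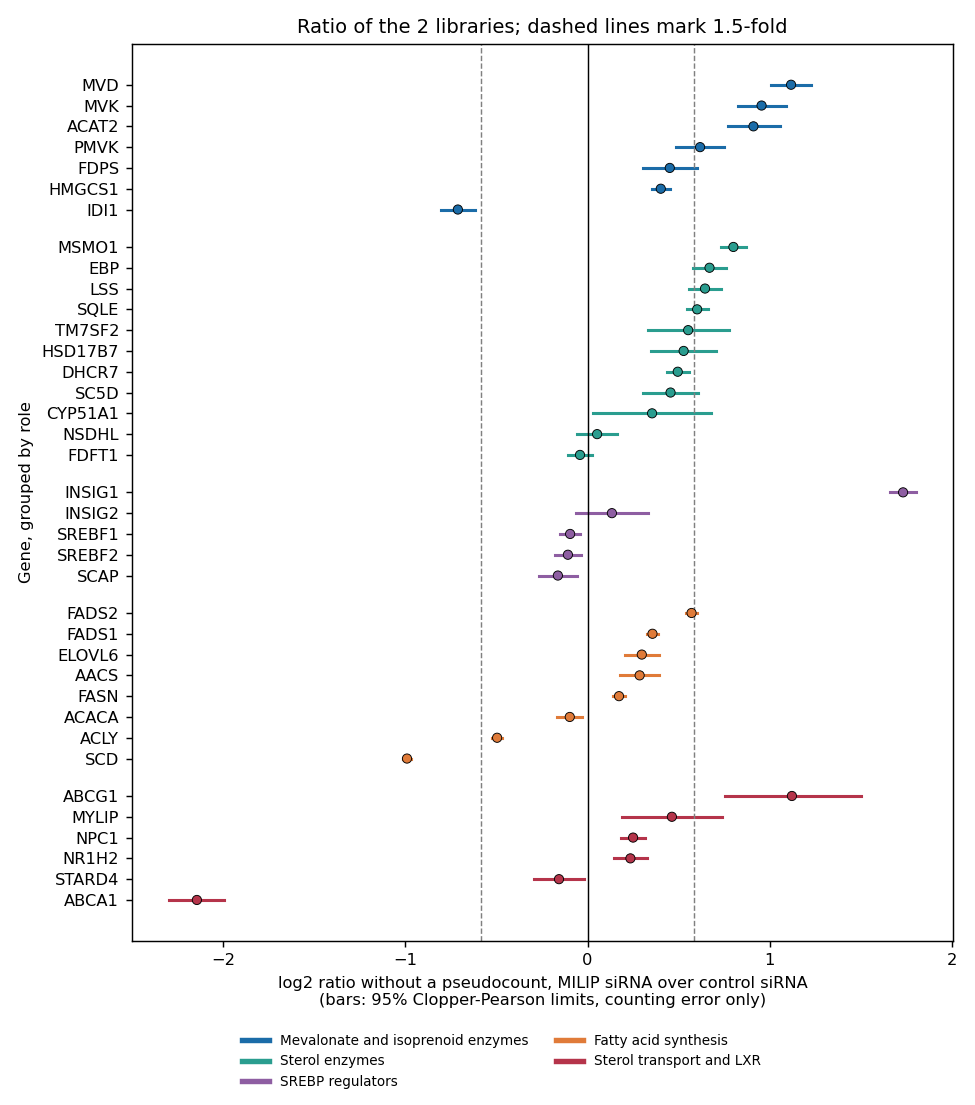
Log2 ratio without a pseudocount of MILIP siRNA over control siRNA for each of the 37 genes (points) with 95% Clopper-Pearson limits for counting error only (bars), grouped by role, with dashed lines at 1.5-fold. The limits lie above 0 for 25 genes, below 0 for 9 genes and on both sides of 0 for INSIG2, NSDHL and FDFT1. Over all 13521 genes tested, the limits lie above 0 for 4165 and below 0 for 4968, so limits clear of 0 are common in these libraries.

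Among the regulators of SREBP, INSIG1 stood apart from the other 4. INSIG1, which retains SCAP and SREBP in the endoplasmic reticulum and is itself a target of SREBP, stood at 104.6 with control siRNA against 347.1 after MILIP siRNA, from 2088 and 6904 reads. The value was 3.32-fold higher after MILIP siRNA (limits 3.16 to 3.49), a log2 ratio of 1.72, and it was the largest ratio of the 37 genes. INSIG2, its paralogue, had values of 20.4 and 22.4, and its log2 ratio of 0.13 had limits of −0.06 to 0.33. The level of INSIG1 per kb of exon was 28.7 in control cells and 95.1 after MILIP siRNA, beside 5.17 and 5.68 per kb for INSIG2.

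The mRNAs of the transcription factors themselves and of SCAP were slightly lower. SREBF1 had values of 283.4 and 265.2 (log2 ratio −0.10, limits −0.15 to −0.04). SREBF2, the main activator of the sterol enzymes, had values of 175.8 and 163.1 (log2 ratio −0.11, limits −0.18 to −0.04). SCAP, the escort protein that senses sterol, had values of 76.8 and 68.6 (log2 ratio −0.16, limits −0.27 to −0.06). On the deposited scaling, these 3 differences were beyond the counting error and fell short of 1.5-fold. Rescaled to listed reads, SREBF1 was at −0.04, SREBF2 at −0.05 and SCAP at −0.11, and limits were not recomputed for that scaling. With the trend of all genes with GC content subtracted, SREBF1 was at −0.33, SREBF2 at −0.16 and SCAP at −0.39, still short of 1.5-fold. The data measure mRNA and not the cleaved SREBP proteins.

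The 8 genes of fatty acid synthesis did not share a direction. Of these, 5 stood above 0 and 3 below 0, with 0 past 1.5-fold higher, 1 past 1.5-fold lower and a median log2 ratio of 0.23, and their summed value was 5815 in control cells and 5033 after MILIP siRNA. Of all 13521 genes tested, 6469 stood above 0 and 7052 below 0. SCD, the desaturase that makes monounsaturated fatty acids, was the most abundant of the 37 genes in both libraries, per kb of exon as well as in all. It stood at 2167 with control siRNA against 1091 after MILIP siRNA (log2 ratio −0.99, limits −1.01 to −0.97), on 43271 and 21694 reads. ACLY, which makes cytosolic acetyl-CoA from citrate, had values of 1210 and 858.1 and a log2 ratio of −0.50 (limits −0.52 to −0.47), the lowest ratio of the group that fell short of 1.5-fold. Per kb of exon, SCD was at 404.2 and 203.4 and ACLY at 232.0 and 164.5, so ACLY came next after SCD in each library.

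The polyunsaturated desaturases went the other way from SCD. FADS2 stood at 683.4 with control siRNA against 1015 after MILIP siRNA (log2 ratio 0.57, limits 0.54 to 0.60), the highest ratio of the group that fell short of 1.5-fold. The log2 ratio of FADS2 was 0.60 after rescaling by the median of ratios and 0.63 after rescaling to listed reads, both past that size. With the GC trend subtracted, it was 0.41 and inside that size. FADS1, its neighbour on chromosome 11, had values of 732.1 and 937.2 and a log2 ratio of 0.36. The exons of these neighbours share 490 bases on opposite strands, 4.79% of those of FADS1. ELOVL6, an elongase of saturated and monounsaturated fatty acids, and AACS, which activates acetoacetate for lipid synthesis, had log2 ratios of 0.29 and 0.28.

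The enzymes of the core of the pathway differed little. FASN, the fatty acid synthase, had values of 691.7 and 779.6 and a log2 ratio of 0.17. ACACA, the carboxylase that supplies malonyl-CoA to it, had values of 178.7 and 167.0 and a log2 ratio of −0.10 (limits −0.17 to −0.03). On the deposited scaling, both were beyond the counting error and in opposite directions. With the GC trend subtracted, FASN was at −0.04 and ACACA at −0.06, so they no longer differed in direction. Rescaled to listed reads, FASN was at 0.23 and ACACA at −0.04.

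Among the genes of sterol transport and LXR, ABCA1 and ABCG1 were past 1.5-fold in opposite directions. ABCA1, the transporter that loads cholesterol onto apolipoprotein A-I, stood at 97.9 with control siRNA against 22.2 after MILIP siRNA (log2 ratio −2.09, limits −2.30 to −1.99), on 1955 and 441 reads. ABCG1, which moves cholesterol to high-density lipoprotein, went from 4.51 on 90 reads to 9.81 on 195 reads, a log2 ratio of 0.97, and was 2.17-fold higher without the pseudocount (limits 1.69 to 2.82). Per kb of exon, ABCA1 was at 8.63 and 1.95 and ABCG1 at 0.737 and 1.60. The gap between these transporters was therefore wide in the control library and narrow after MILIP siRNA.

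Both transporters are textbook targets of LXR, as is MYLIP, a ubiquitin ligase that removes lipoprotein receptors, which had values of 9.82 and 13.5 and a log2 ratio of 0.43 (limits 0.19 to 0.74). NR1H2, which encodes LXR-beta, had values of 97.0 and 114.2 and a log2 ratio of 0.23. NPC1, which exports cholesterol from lysosomes, had values of 164.6 and 195.6 and a log2 ratio of 0.25. The limits of all 3 lay above 0 and their ratios inside 1.5-fold. STARD4, a carrier of sterol within the cell, had values of 46.6 and 41.8 and a log2 ratio of −0.15. Of ABCA1, ABCG1 and MYLIP, ABCA1 stood below 0 and the others above it.

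**Figure D3:**
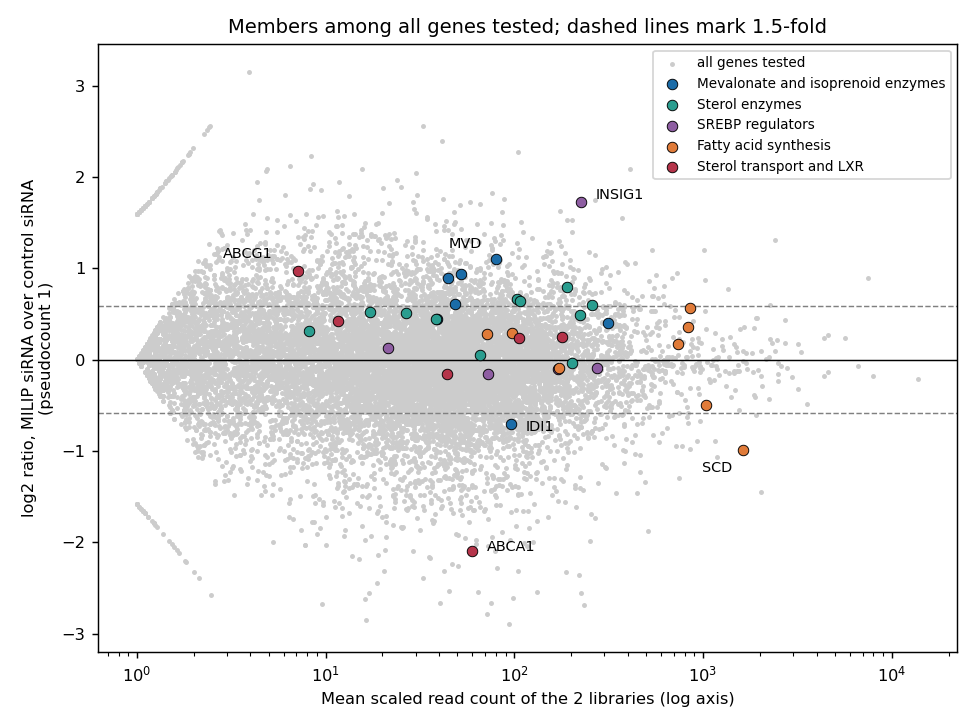
Log2 ratio with a pseudocount of 1 against the mean scaled read count of both libraries on a log axis, for all 13521 genes tested (grey) and the 37 genes (coloured by role), with dashed lines at 1.5-fold. INSIG1 lies near the upper edge and ABCA1 near the lower edge of the genes of like abundance, and most mevalonate and sterol enzymes lie between 0 and the MVD point at 1.10.

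Genes of the same pathways that are outside the group were counted in the same way, from lists of 61 genes in all. Of these 61, 14 (23.0%, against 11.1% of all genes tested) were at least 1.5-fold higher. A further 7 (11.5%, against 13.8% of all genes tested) were at least 1.5-fold lower, and the median log2 ratio of the 61 was 0.24. The same shares of all genes tested are the background for the count of each list below. The 13 other genes of sterol and isoprenoid metabolism had a median log2 ratio of 0.18, with 2 past 1.5-fold higher and 1 past 1.5-fold lower, and their median was 0.38 with the GC trend subtracted. PDSS1 and PDSS2, the subunits of the enzyme that makes the side chain of coenzyme Q, were at the ends of this list. PDSS1 had values of 19.7 and 10.6 and a log2 ratio of −0.83, whereas PDSS2 had values of 8.67 and 18.5 and a log2 ratio of 1.01. ERG28, a scaffold of the sterol demethylation complex, was next to the highest with values of 56.3 and 86.4 and a log2 ratio of 0.61. DHDDS, a subunit of the enzyme that makes dolichol, was next to the lowest with a log2 ratio of −0.40.

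The 10 genes that process SREBP or degrade its regulators had a median log2 ratio of −0.06, with 1 past 1.5-fold higher and 4 past 1.5-fold lower, or 3 after either rescaling or with the GC trend subtracted. PAQR3, a Golgi protein that anchors SCAP and SREBP, had values of 40.9 and 12.5 and a log2 ratio of −1.63. FAF2 and MBTPS2 were also past 1.5-fold lower. FAF2, which helps extract proteins from the membrane for degradation, was at −0.72. MBTPS2, the protease that makes the last cut in SREBP, was at −0.61. MBTPS2 was the nearest of the 4 to that size and came inside it after either rescaling. ERLIN2, which guides sterol-regulated degradation, had values of 50.2 and 104.8 and a log2 ratio of 1.05. FAF2 carries seed matches of the siRNA in its 3′ UTR, and PAQR3 and MBTPS2 carry none.

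The 15 other genes of sterol uptake, export and LXR had a median log2 ratio of 0.50, with 7 past 1.5-fold higher and 0 past 1.5-fold lower. OSBPL2, an oxysterol-binding protein, had values of 21.3 and 37.3 and a log2 ratio of 0.78. LIPA, the lysosomal lipase that frees cholesterol from its esters, had values of 116.9 and 196.9 and a log2 ratio of 0.75. The lowest ratios were those of SCARB1, a receptor for high-density lipoprotein, at −0.51 and of GRAMD1B, a carrier of plasma membrane cholesterol, at −0.48. NR1H3, which encodes LXR-alpha, was among the 7, with values of 14.6 and 23.4 and a log2 ratio of 0.64.

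The 23 other genes of fatty acid and glycerolipid synthesis had a median log2 ratio of 0.23, with 4 past 1.5-fold higher and 2 past 1.5-fold lower. With the GC trend subtracted, 2 were higher and 1 was lower by that size. SCD5, the second desaturase of the SCD family, had values of 18.1 and 36.4 and a log2 ratio of 0.97, opposite to SCD. PCYT2, an enzyme of phosphatidylethanolamine synthesis, followed with a log2 ratio of 0.75. The lowest were DGAT2, which makes triglyceride, with values of 4.86 and 2.62 on 97 and 52 reads and a log2 ratio of −0.70, and HSD17B12, a reductase of fatty acid elongation, with values of 119.9 and 73.8 and a log2 ratio of −0.69. In scaled read count, SCD5 stood below SCD in both libraries.

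Genes of fatty acid oxidation served as a contrast. Their 12 members had a median log2 ratio of 0.34, beside the 0.36 of the group, with 2 past 1.5-fold higher (4 after rescaling to listed reads) and 0 past 1.5-fold lower. SLC25A20, which carries acylcarnitines into mitochondria, had a log2 ratio of 0.82 and CPT2, which releases the acyl group inside, one of 0.59, whereas CPT1A, the rate-limiting carnitine transferase, had a log2 ratio of −0.39 and ACADM, a dehydrogenase of medium chains, one of −0.16. A median above that of all genes was therefore measured in the breakdown pathway as well as in the synthesis pathways.

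**Figure D4:**
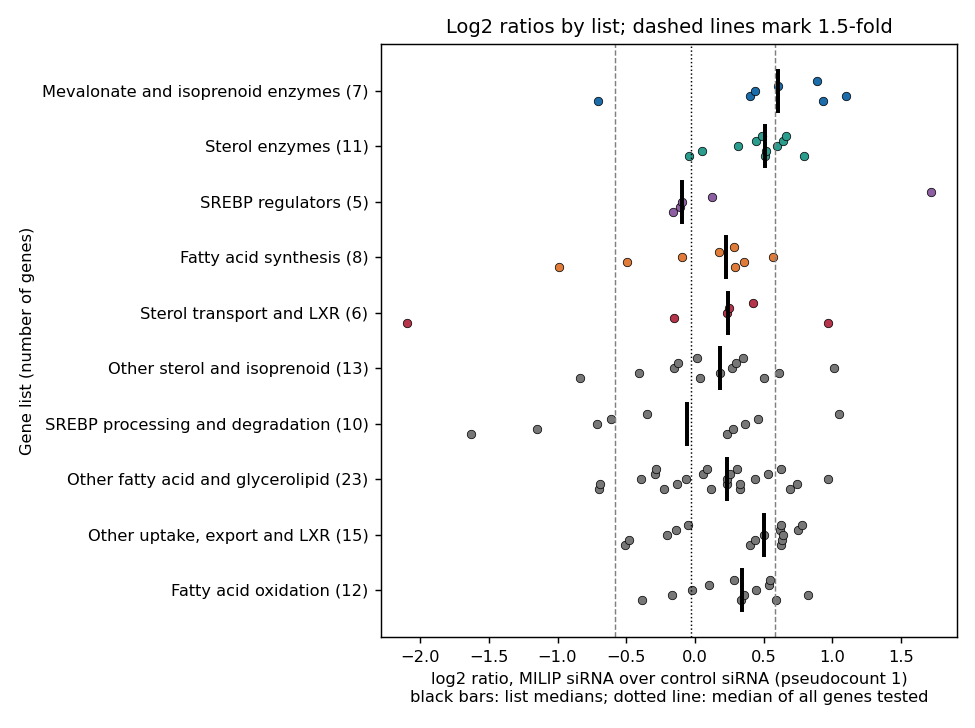
Log2 ratio of every gene (points) in the 5 roles of the group (coloured) and in the 5 other pathway lists (grey), with the median of each list as a black bar, the median of all genes tested as a dotted line and dashed lines at 1.5-fold. The mevalonate and isoprenoid enzymes have the highest median at 0.60, the SREBP regulators and the SREBP processing genes have medians below 0, and the fatty acid oxidation genes have a median of 0.34.

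The promoters of the group were searched for 4 motifs in the 300 bases that RefSeq (GRCh38.p14) gives for each start, 250 before it and 50 after it, on both strands and with overlapping matches counted apart. Promoters were found for 32 of the 37 genes, 42 in all. The CCAAT box (letters CCAAT, or ATTGG on the other strand), which binds NF-Y, a cofactor of SREBP, was in 25 of these 42 promoters (59.5%) and in 34.3% of the 15110 promoters of genes tested. Among the 20 promoters of mevalonate and sterol enzymes, 15 (75%) held it. The GC box (GGGCGG), which binds Sp1, was in 38 of 42 (90.5%), beside 66.4% of promoters of genes tested. The E-box (CACGTG), the motif that c-Myc and SREBP can bind, was in 6 of 42 (14.3%), beside 9.27%. The sterol regulatory element spelled TCACNCCAC was in 1 of 42, that of SREBF2 at position −133 from the start, beside 0.973% of promoters of genes tested. The absence of these letters elsewhere says only that they are not in these windows.

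The 250 bases before the start are shown for the 7 genes past 1.5-fold higher that have a promoter in the table, so that the CCAAT boxes can be read, and for ABCA1, the gene with the lowest ratio. Capitals mark the CCAAT box on either strand, each run is written 5′ to 3′ on the strand of the gene, and other annotated starts of these genes can lie inside the windows. INSIG1 is at chr7:155297628-155297877 (+), MVD at chr16:88663092-88663341 (−), MVK at chr12:109573544-109573793 (+), MSMO1 at chr4:165327419-165327668 (+), EBP at chrX:48521558-48521807 (+), LSS at chr21:46228775-46229024 (−), PMVK at chr1:154936720-154936969 (−) and ABCA1 at chr9:104928156-104928405 (−).
INSIG1: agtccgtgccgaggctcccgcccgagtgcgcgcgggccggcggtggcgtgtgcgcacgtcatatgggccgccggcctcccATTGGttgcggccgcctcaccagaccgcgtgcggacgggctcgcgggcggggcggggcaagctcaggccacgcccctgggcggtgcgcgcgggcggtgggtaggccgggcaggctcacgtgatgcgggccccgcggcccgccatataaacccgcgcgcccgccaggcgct
MVD: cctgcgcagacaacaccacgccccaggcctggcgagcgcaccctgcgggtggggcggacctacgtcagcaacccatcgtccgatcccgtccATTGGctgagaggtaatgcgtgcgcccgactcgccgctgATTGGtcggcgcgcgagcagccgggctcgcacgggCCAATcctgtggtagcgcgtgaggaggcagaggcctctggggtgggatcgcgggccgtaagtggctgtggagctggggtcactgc
MVK: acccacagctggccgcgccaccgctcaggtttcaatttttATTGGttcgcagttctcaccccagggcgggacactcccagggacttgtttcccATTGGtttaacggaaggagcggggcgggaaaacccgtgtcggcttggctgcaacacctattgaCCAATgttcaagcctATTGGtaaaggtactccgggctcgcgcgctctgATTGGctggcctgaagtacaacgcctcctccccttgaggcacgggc
MSMO1: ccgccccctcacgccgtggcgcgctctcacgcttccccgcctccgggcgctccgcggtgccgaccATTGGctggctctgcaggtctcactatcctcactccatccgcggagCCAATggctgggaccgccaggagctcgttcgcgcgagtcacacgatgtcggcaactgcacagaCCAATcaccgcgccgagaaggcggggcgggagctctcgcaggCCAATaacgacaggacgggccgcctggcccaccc
EBP: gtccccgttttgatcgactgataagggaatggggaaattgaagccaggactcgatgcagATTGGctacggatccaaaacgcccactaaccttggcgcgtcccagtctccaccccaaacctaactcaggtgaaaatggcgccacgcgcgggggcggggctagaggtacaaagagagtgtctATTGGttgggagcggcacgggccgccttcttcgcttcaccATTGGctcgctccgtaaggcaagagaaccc
LSS: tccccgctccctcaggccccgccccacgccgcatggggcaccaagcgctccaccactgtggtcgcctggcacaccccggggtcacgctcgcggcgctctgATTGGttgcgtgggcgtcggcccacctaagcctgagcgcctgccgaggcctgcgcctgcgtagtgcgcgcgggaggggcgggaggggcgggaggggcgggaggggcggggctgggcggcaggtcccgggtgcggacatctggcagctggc
PMVK: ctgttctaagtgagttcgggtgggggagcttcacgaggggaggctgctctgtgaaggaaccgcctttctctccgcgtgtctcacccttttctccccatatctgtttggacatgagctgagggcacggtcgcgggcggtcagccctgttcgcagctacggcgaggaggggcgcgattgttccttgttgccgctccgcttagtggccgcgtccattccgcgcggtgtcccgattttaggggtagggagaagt
ABCA1: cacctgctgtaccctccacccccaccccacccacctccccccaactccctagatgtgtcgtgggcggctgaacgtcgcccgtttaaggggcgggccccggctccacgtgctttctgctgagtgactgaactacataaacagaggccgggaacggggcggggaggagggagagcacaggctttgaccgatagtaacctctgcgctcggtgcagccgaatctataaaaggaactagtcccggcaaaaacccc

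These windows held 5 matches in MVK, 4 in MSMO1, 3 each in MVD and EBP, 1 each in INSIG1 and LSS and 0 in PMVK and ABCA1. Among the genes shown, INSIG1 with 1 match had a log2 ratio of 1.72 and MVK with 5 had one of 0.94. These genes were chosen by their ratios, and a relation between the number of matches and the ratio was not tested. CCAAT boxes were also in promoters of genes that were lower, among them SCD and IDI1. Counted by gene, 6 of the 7 genes past 1.5-fold higher with a promoter (85.7%) held the box in at least 1 promoter. The same held for 2 of the 3 genes past 1.5-fold lower (66.7%) and for 42.9% of genes tested.

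The study names the siRNA of these libraries as its second one against MILIP (si-MILIP.2), which has a guide strand whose bases 2 to 8 pair with the letters GACCCTA. This 7-base site occurs once in the 1895-base MILIP transcript, at position 1626, inside the intended target. Among the 12198 genes tested with an annotated 3′ UTR, 686 (5.62%) hold the site there, and these had a median log2 ratio of −0.43 with 40.5% at least 1.5-fold lower, whereas the 11512 genes without it had a median of −0.01 with 12.5% at least 1.5-fold lower. Of the 37 genes, 3 (8.11%) hold the site in the 3′ UTR, SCD with 2 sites, IDI1 with 1 and SREBF1 with 1, and all 3 had log2 ratios below 0. Over all genes tested, those with the site had a median 3′ UTR of 3239 bases and a median GC content of 47.2%. Those without it had medians of 1378 bases and 49.0%. The parts of the seed, of 3′ UTR length and of GC content in these differences were not tested.

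The sites are shown with 9 bases on either side, in the sense of the transcript and with the 7 bases that pair with the seed in capitals. Of the 3 genes past 1.5-fold lower, 2 carry them. Among all genes tested with an annotated 3′ UTR, 278 genes with the site and 1442 without it were lower by that size. Positions are those of the 7 bases in GRCh38 with GENCODE release 29, and those of SCD, IDI1 and SREBF1 lie in 3′ UTRs. The site of MILIP is at chr17:81930484-81930490 (+), those of SCD are at chr10:100363651-100363657 (+) and chr10:100363945-100363951 (+), that of IDI1 is at chr10:1040645-1040651 (−) and that of SREBF1 is at chr17:17812442-17812448 (−).
MILIP: taacatagaGACCCTAtcgctacaa
SCD first site: ctgtaccatGACCCTAcataaggct
SCD second site: tgcacctgaGACCCTActgaagtgg
IDI1: aatgatatgGACCCTAatttgtatc
SREBF1: cgcgatcttGACCCTAagaccggcg

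The flanking bases differ among the 5 sites, which share only the capitals by construction. ABCA1, the lowest of the group, and ACLY hold 0 such sites in their 3′ UTRs. The 34 genes without a site had a median log2 ratio of 0.41, with 10 past 1.5-fold higher and 1 past 1.5-fold lower. SREBF1, with 1 site, had a log2 ratio of −0.10, or −0.33 with the GC trend subtracted.

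Log2 ratios over all genes moved with the GC content of the transcript. In bins of 2679 or 2680 genes from the lowest to the highest GC content, the median over all genes tested was −0.22, −0.13, −0.05, 0.08 and 0.18. The medians of the members in the same bins were 0.26, 0.31, 0.25, 0.47 and 0.52, over 6, 5, 9, 8 and 9 genes. The median GC content was 50.3% for the group and 48.8% over all genes tested, and the members' median was above that of all genes in each of the 5 bins. Among single genes, MSMO1 with 38.1% GC and MVD with 65.6% GC were both past 1.5-fold higher. With the trend subtracted, LSS at 0.48 and PMVK at 0.46 came inside 1.5-fold, as did IDI1 at −0.51, and HMGCS1 at 0.61, SC5D at 0.68 and HSD17B7 at 0.59 came past it. The genes INSIG1, ABCG1, MVD, MVK, ACAT2, MSMO1, EBP and SQLE stayed past it, and SCD and ABCA1 stayed past it in the lower direction. Of the genes short of 1.5-fold, INSIG2 came to 0.37, ELOVL6 to 0.47 and CYP51A1 to 0.49, and NR1H2 to 0.07.

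**Figure D5:**
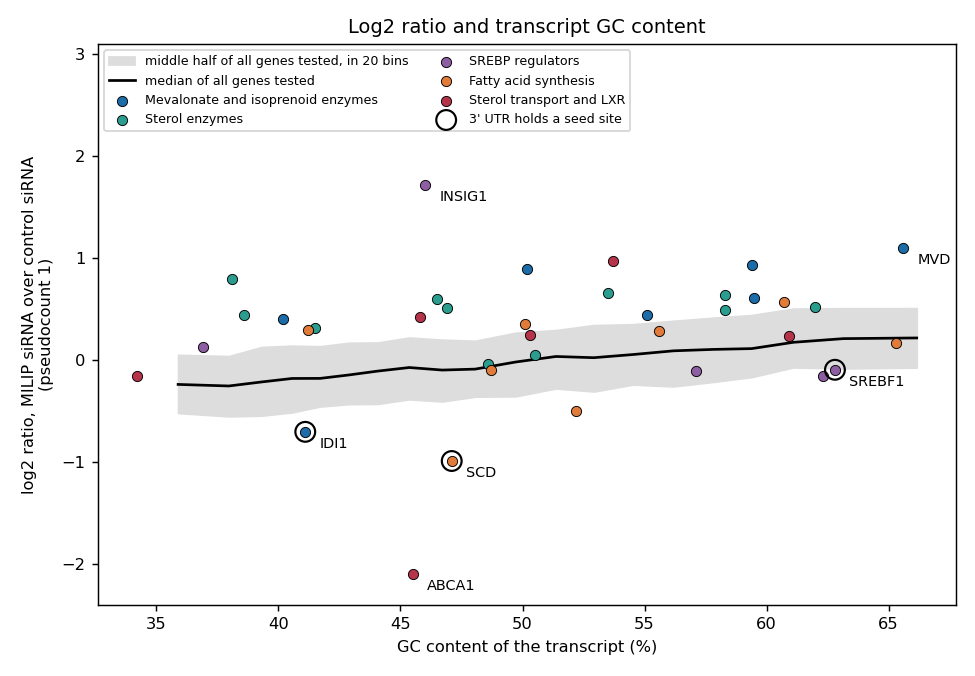
Log2 ratio with a pseudocount of 1 against the GC content of the transcript in percent for the 37 genes (points coloured by role), with the median (line) and the middle 50% (band) of all genes tested, and with rings around the genes whose 3′ UTR holds a seed site. The line runs from below 0 at low GC content to above 0 at high GC content, and the ringed genes SCD at −0.99 and IDI1 at −0.70 lie under the band while SREBF1 at −0.10 lies near its lower edge.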

How the data were processed

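RNA from A549 cells was sequenced 48 h after transfection of control siRNA or MILIP siRNA, with 1 library per condition. The submitters' processing notes name TopHat2 2.0.12, HTSeq 0.6.1 and build hg38, while the scaling, the annotation and the use of strand are not given in the sources used here. The deposited table holds a scaled signal per gene and library (named as read counts, but whole multiples of a step of 0.0501 in the control and 0.0503 with MILIP siRNA, to a tolerance of 0.001), with values under 20 steps listed at 0, for 27856 of 60711 genes. The values sum to 1016809 and 978499. The authors' columns of fold change, p-value, q-value and call were not used.

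For the 13521 genes that averaged at least 1 in both libraries, log2(value + 1) was compared between libraries, and differences were counted from 1.5-fold. Reads for the Clopper-Pearson limits (95%, counting error only) are values divided by the step. The members and the other pathway lists were chosen with earlier results of these data known. All members are named, with the highest and lowest 2 log2 ratios of each other list (some of these are not reported here), and NR1H3, FAF2 and MBTPS2 were added after their values were seen. Transcript GC content (99.1% of genes tested), exon overlaps and 3′ UTRs came from GENCODE release 29 (GRCh38), with the longest coding transcript per gene, and promoters from RefSeq (GRCh38.p14). The seed site was derived from the sequence that the study lists for the siRNA. No model and no test was run, since neither condition has a replicate. The alternatives were a pseudocount of 0.1, no pseudocount, rescaling by the median of ratios or to listed reads, no filter, a minimum mean of 5, a 2-fold threshold and removal of the GC trend in 50 bins. The calculations were tested on simulated data. Calculations ran in Python 3.11.15 (numpy 2.4.6; pandas 2.3.3) with scipy 1.17.1, and figures in matplotlib 3.10.9.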

Additional observations from a re-analysis of the deposited data

How the results depend on the processing

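The 10 genes of the group past 1.5-fold higher, the 3 past 1.5-fold lower and the median of 0.36 were recomputed under each alternative. With a threshold of 2-fold, 2 genes were higher (beside 3.48% of all genes tested) and 1 was lower (beside 4.62%). Without the members that carry a seed site, an alternative chosen after seeing the data, 1 gene was lower and 10 were higher. Under the other alternatives, 8 to 11 genes were higher, 2 or 3 were lower and the median lay between 0.36 and 0.41, the count of 8 coming from the 29 members with under 5% exon overlap with another gene, also chosen after seeing the data, as was the ratio without a pseudocount. Of the 37 genes, 34 kept their sign in all 8 settings that gave a ratio for each. The exceptions were FASN at −0.04 and STARD4 at 0.08 with the GC trend removed and FDFT1 at 0.01 after rescaling to listed reads, and none of these was past 1.5-fold. Among the other lists, counts or medians moved for fatty acid and glycerolipid synthesis, with 2 higher and 1 lower with the GC trend removed and 1 lower with a minimum mean of 5, for sterol and isoprenoid metabolism, with a median of 0.38 with the GC trend removed, and for fatty acid oxidation, with 4 higher after rescaling to listed reads. No paired analysis was possible because there is 1 library of each kind, which also leaves no replicate to omit. Depth limits the low genes most: ABCG1 rests on 90 and 195 reads and CYP51A1 on 143 and 182 reads, whereas the spread between cultures could not be measured for any gene.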
